A study of Mus musculus with 16 samples.

Results

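The 8 genes described here encode proteins of the rod and cone photoreceptors of the retina: Rbp3, Sag, Gnat1, Gnat2, Pde6a, Pde6b, Rom1 and Prph2. They were picked by name, with earlier results of these data known. A probe set with 1 gene symbol was found for 7 of the 8, among 8251 such genes on the array. Rbp3 had none under its symbol or gene ID in the annotation used, so its expression was not analysed here. The cells came from the mouse thymus, sorted by FACS, and their RNA was hybridised to Affymetrix arrays. The 16 arrays formed 8 groups of 2. Sorting for high or low surface CD80 gave 4 of the groups, CD80hi and CD80lo epithelial cells of the thymic medulla (mTEC) from wild-type animals and from Aire knockout animals, which the labels call AIRE k/o. The remaining 4 were wild-type only: mTEC not split by CD80 (unfractionated), epithelial cells of the cortex (cTEC), dendritic cells and macrophages of the thymus. The sources used here do not state the strain, the age or the knockout allele, or if 2 samples of a group were taken from different animals. The p-values therefore measure only the spread between these samples, which may be technical. In a sorted bulk sample, fewer cells carrying an RNA and less of that RNA per cell cannot be told apart.

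Photoreceptors turn light into an electrical signal. A light-activated visual pigment switches on transducin, a G protein whose alpha subunit is Gnat1 in rods and Gnat2 in cones, and transducin activates the cGMP phosphodiesterase, built in rods from the catalytic subunits Pde6a and Pde6b. Sag (S-antigen, or arrestin) shuts the pigment off, the tetraspanins Prph2 and Rom1 shape the rims of the membrane discs that hold it, and Rbp3 (interphotoreceptor retinoid-binding protein) carries retinoids outside the cells. Several of these proteins, Rbp3 and Sag best known among them, can be targets of autoimmune attack on the eye. Medullary epithelial cells transcribe many genes of other tissues, in part under control of the nuclear protein Aire, and present their products to developing T cells. Cells with high CD80, a costimulatory surface protein, are the more mature medullary cells and contain those with Aire.

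The samples were first checked against their labels. The Cd80 probe set read 61.3 to 104.5 on the CD80hi arrays and 6.6 to 13.7 on the CD80lo arrays. Aire read 1704.5 and 1828.6 in wild-type CD80hi and 1385.3 and 1589.1 in knockout CD80hi cells; where the probes lie with respect to the deletion is not stated, so this checks nothing about the genotype. Ins2, an insulin gene whose thymic transcription is known to need Aire, read 238.5 and 294.2 in CD80hi cells of the wild type and 0.3 and 12.6 in those of the knockout. The integrin Itgax, a dendritic cell marker, read 1187.8 and 1296 in dendritic cells and at most 276.6 elsewhere, and the macrophage receptor Adgre1 read 506.8 and 1199.1 in macrophages and at most 68 elsewhere. The summed signal of 13 thymocyte markers was 3962.4 to 7157.1 in cTEC, 2896.6 to 6871.4 in macrophages and 2808.1 to 2857.5 in dendritic cells, against 506.5 to 524 in unfractionated mTEC. That of 8 cortical epithelium markers was 10515.9 to 15280.1 in cTEC, but also 1945.1 to 6292.3 in macrophages and 5248.6 to 6607.3 in unfractionated mTEC. It was 9813.1 to 10165.3 in knockout CD80lo mTEC, so a high sum was not particular to cTEC. None of the 1472 marker values was listed at 0.

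The windows around the transcription starts give the genes' own regulatory sequence, 250 bases before to 50 bases after the start in RefSeq's mouse GRCm38.p6 annotation, and 6 of the 8 genes matched (Rbp3, Sag, Gnat2, Pde6b, Rom1 and Prph2). A set of 3 windows, of Rom1, Gnat2 and Sag, is printed 5′ to 3′ on the gene's strand. Rom1 was highest by mean in CD80hi cells of both genotypes, and Gnat2 in those of the wild type only. Sag is a classical eye antigen with another pattern. The letters searched, on both strands, were TAATCC (reverse GGATTA), the core bound by the photoreceptor factor CRX, TGCTGA (reverse TCAGCA), part of the site of the rod factor NRL, and GGGCGG (reverse CCGCCC), the GC box; matches are in capitals. Rom1 lies at chr19:8929307-8929606 on the minus strand, Gnat2 at chr3:108092816-108093115 on the plus strand and Sag at chr1:87803430-87803729 on the plus strand.
Rom1: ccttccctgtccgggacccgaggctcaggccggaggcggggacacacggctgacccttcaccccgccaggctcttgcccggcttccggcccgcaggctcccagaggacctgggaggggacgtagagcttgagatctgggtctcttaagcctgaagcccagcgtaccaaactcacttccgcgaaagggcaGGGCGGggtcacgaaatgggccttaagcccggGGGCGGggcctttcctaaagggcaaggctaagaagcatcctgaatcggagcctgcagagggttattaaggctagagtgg
Gnat2: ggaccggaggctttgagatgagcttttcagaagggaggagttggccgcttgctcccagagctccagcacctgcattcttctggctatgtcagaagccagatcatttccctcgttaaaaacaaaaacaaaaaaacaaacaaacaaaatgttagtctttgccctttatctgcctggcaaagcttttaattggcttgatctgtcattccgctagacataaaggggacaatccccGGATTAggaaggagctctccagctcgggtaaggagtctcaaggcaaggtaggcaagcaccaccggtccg
Sag: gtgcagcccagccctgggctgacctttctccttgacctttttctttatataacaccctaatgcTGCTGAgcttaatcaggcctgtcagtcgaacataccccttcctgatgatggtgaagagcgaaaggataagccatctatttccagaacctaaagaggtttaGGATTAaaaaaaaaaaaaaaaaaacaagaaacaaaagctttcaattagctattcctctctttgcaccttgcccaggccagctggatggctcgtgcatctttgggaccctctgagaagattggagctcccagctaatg

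The CRX core was found in 3 of the 6 windows, 69 bases before the start in Rbp3, 87 in Sag and 19 in Gnat2, and in 7.06% of all 32851 promoter windows. The NRL letters were in 3 of the 6, 155 bases before the start in Rbp3, 187 in Sag and 8 in Pde6b, against 19.5% of all windows. The GC box was in 1 of the 6, Rom1, which had it 61 and 29 bases before the start, against 35.7% of all windows. The Rom1 window had neither the CRX nor the NRL letters and a GC content of 64%, where the median of all windows was 52.7%, Gnat2 had 48.7% and Sag 44.7%. A match is a description of the letters in the window and not a binding site.

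All signals of these genes were low. The 7 genes had 9 probe sets, and of their 144 values 24 exceeded 17.3, the 40th percentile of all signals in the deposited table, where each array's trimmed mean was about 100.1. Their median was 7.55, and the highest was 35.8, for Sag in knockout CD80lo cells. No value stood above percentile 52.5 of its own array, while 52.9% to 64.7% of all probe sets exceeded 17.3 on an array. The brightest probe sets of Rom1, Sag, Gnat2, Pde6a and Pde6b exceeded 17.3 on at least 2 arrays and were tested; those of Gnat1 and Prph2 did not on any array. Because a gene could pass through the one group where it was bright, the counts and medians over these 5 genes are a description only.

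**Figure D1:**
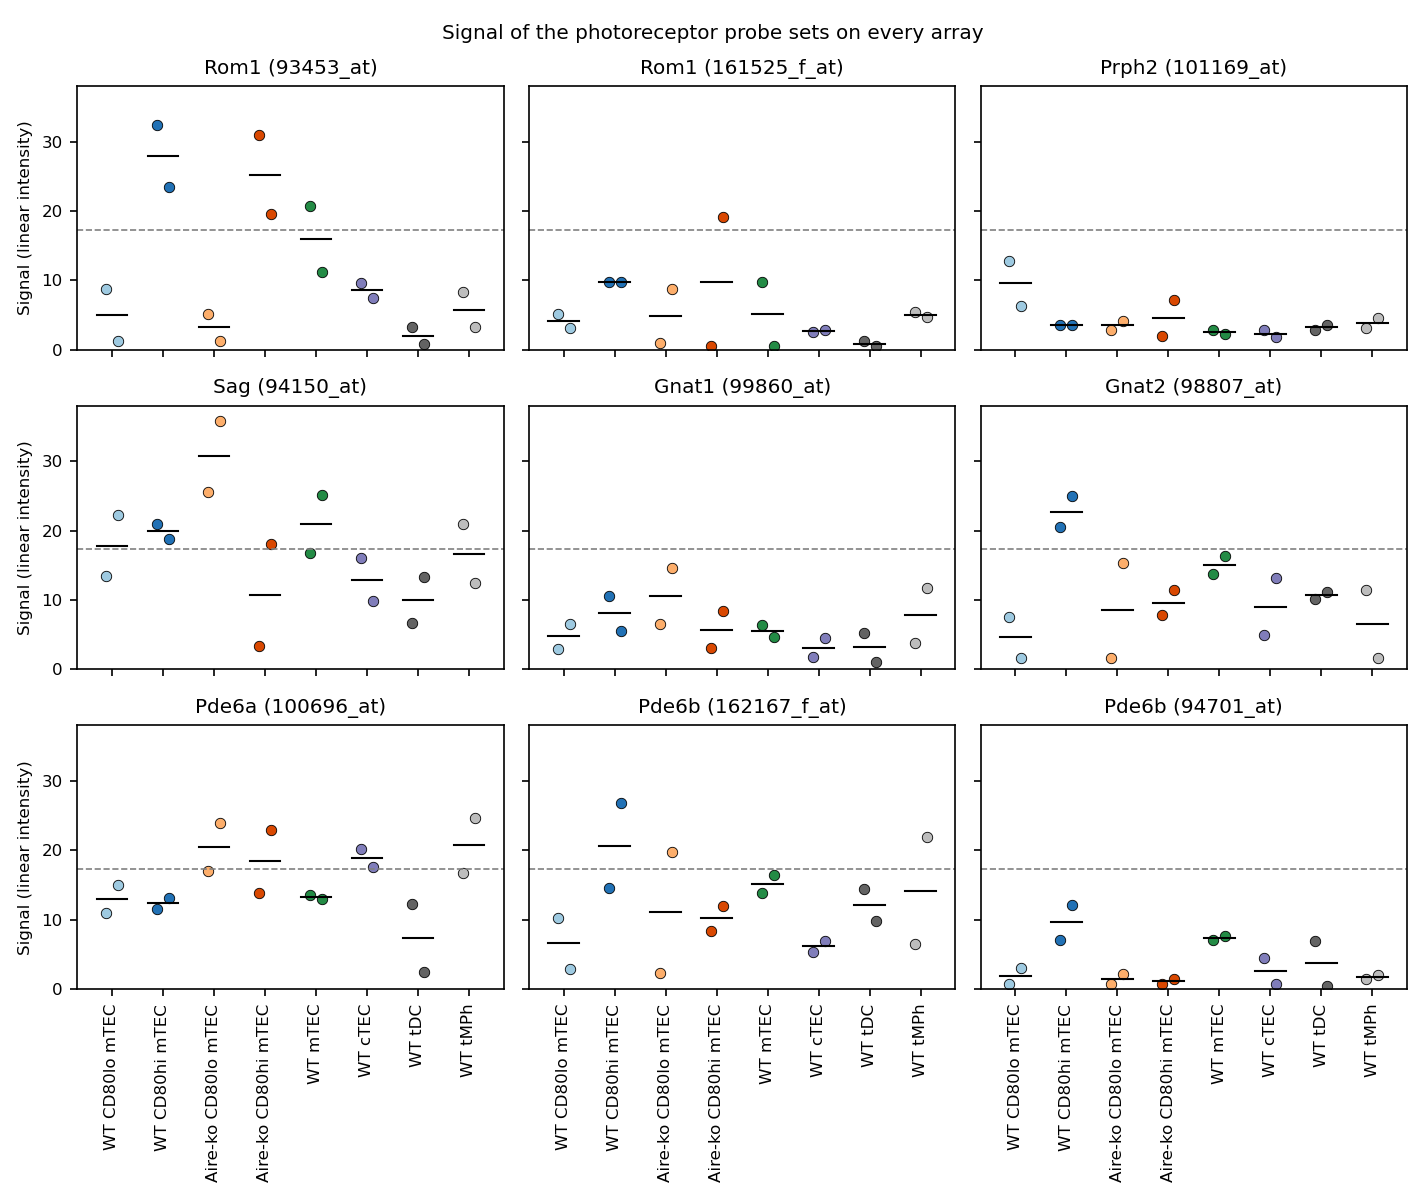
Signal (linear deposited units) of the 9 probe sets in the 8 groups; each dot is 1 array, the short line is the mean of 2 arrays and the dashed line is the filter level of 17.3. The brighter Rom1 probe set lay over the line in all 4 CD80hi arrays, and Gnat1 and Prph2 stayed under it on every array.

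The comparison of wild-type CD80hi with CD80lo mTEC asks how these genes differ between the mature and the less mature medullary cells. Rom1 rose, alone among the 5 tested genes (1 of 5; 12.7% of the 9319 tested probe sets passed in either direction, by limma with Benjamini-Hochberg adjustment and a threshold of 0.05). The median log2 difference of the 5 was 1.20, against -0.04 for all tested probe sets. Gnat2 passed the filter only through its wild-type CD80hi arrays, and Rom1 mostly through CD80hi arrays, so this median shows no shift of the set. Without the filter the untested Gnat1 and Prph2 differed by 0.43 and -0.74. In the knockout, Rom1 was again the 1 of 5 that passed, and rose in CD80hi against CD80lo cells, beside 12.8% of all probe sets; the median of the 5 was 0.17. The genotype comparison asks which genes depend on Aire. None of the 5 passed between knockout and wild-type CD80hi cells, where 3.05% of all probe sets did, and none was under an unadjusted limma p of 0.05. In CD80lo cells none of 5 passed either, nor at the unadjusted level, beside 0.322% of all probe sets. Their median difference was -0.73 in CD80hi and 0.35 in CD80lo cells. The test of whether the genotype difference itself differed between CD80hi and CD80lo cells called none of the 5, with 1.30% of all probe sets called and 1 of the 5 (Sag) under an unadjusted p of 0.05.

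The other 3 comparisons set unfractionated mTEC against other thymic cells. Rom1 rose against dendritic cells, 1 of 5, beside 24.3% of all probe sets. None of the 5 passed against cTEC, where 15.4% of all probe sets did, or against macrophages, where 22.0% did. By their brightest probe sets none was under an unadjusted limma p of 0.05 in either. In all, 3 of the 40 tests of these genes passed, all of Rom1, and 6 were under an unadjusted p of 0.05, a level that 5.55% to 33.8% of all probe sets met, depending on the comparison. The comparisons share arrays (wild-type CD80hi, or unfractionated mTEC), so they are not independent of each other.

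**Figure D2:**
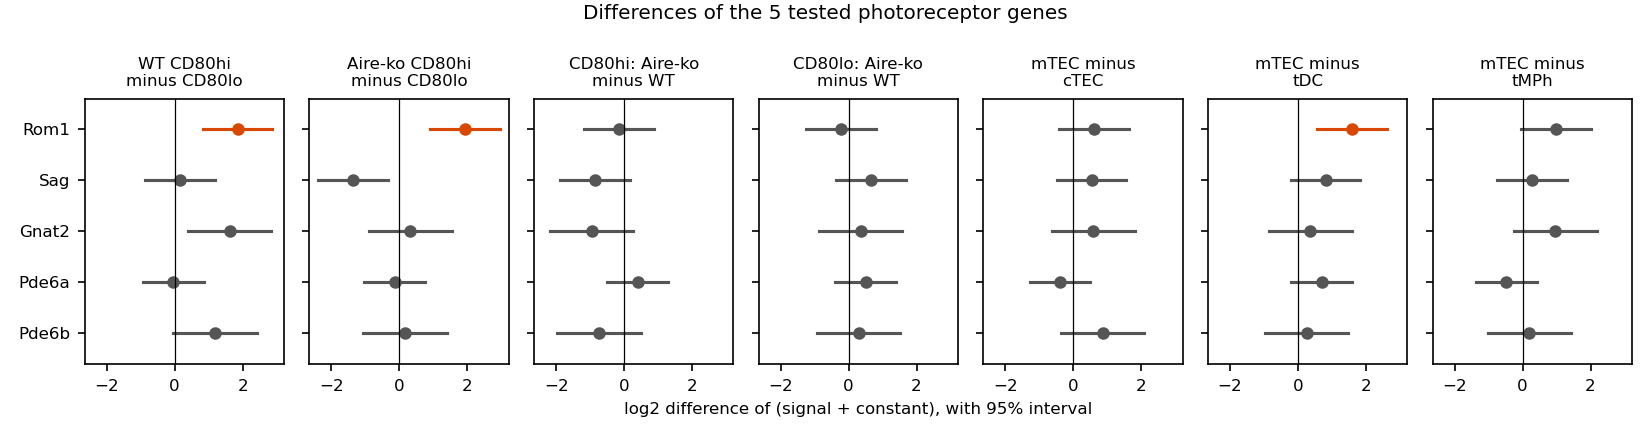
Log2 difference with its 95% interval for the 5 tested genes in 7 comparisons, from 1 limma model over 16 arrays; orange marks an adjusted p under 0.05. The 3 orange points are Rom1 at 1.85, 1.93 and 1.59.

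Rom1, a tetraspanin of the disc rim, had its brightest probe set at 32.4 and 23.5 in wild-type CD80hi and at 30.9 and 19.5 in knockout CD80hi cells. It read 8.7 and 1.2 in wild-type CD80lo and 5.2 and 1.2 in knockout CD80lo cells. Unfractionated mTEC gave 20.7 and 11.2. All 4 CD80hi arrays lay above all 4 CD80lo arrays, and the wild-type and knockout arrays overlapped within each CD80 class. Outside the medulla Rom1 read 9.6 and 7.5 in cTEC, 8.3 and 3.2 in macrophages, and 3.2 and 0.8 in dendritic cells. Ordered by their means the groups ran from wild-type CD80hi (27.95) over knockout CD80hi (25.2), unfractionated mTEC (15.95), cTEC (8.55), macrophages (5.75), wild-type CD80lo (4.95) and knockout CD80lo (3.2) to dendritic cells (2). Of these neighbours only unfractionated mTEC and cTEC did not overlap.

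On the log2(signal + 4.8) scale, which understates changes of such low signals, Rom1 differed by 1.85 ± 0.48 (SE, 95% interval 0.82 to 2.88, adjusted p = 0.0190) between wild-type CD80hi and CD80lo cells. Leaving out wild-type CD80hi array 1 or 2 or CD80lo array 2 ended this call (adjusted p = 0.154, 0.0652 and 0.240), as did quantile normalization (1.67, adjusted p = 0.0543). The constant set the size: the difference was 2.63 with 1 added and 1.04 with 17.3 added, and the call held with both. In the knockout the difference was 1.93 ± 0.48 (0.90 to 2.95, adjusted p = 0.0156), which did not pass without knockout CD80hi array 1 (adjusted p = 0.105), without knockout CD80lo array 2 (0.108) or with only these 4 arrays in the fit (0.0682); it was 2.79 with 1 added and 1.05 with 17.3 added. A rise in the CD80hi class was measured in both genotypes. The probe set exceeded 17.3 only on the 4 CD80hi arrays and unfractionated mTEC array 1, so Rom1 passed the filter where it was high. Both rises are therefore a description. Without the filter their adjusted p by limma was 0.0193 in the wild type and 0.0160 in the knockout. The difference between the 2 rises was 0.08 ± 0.68 (-1.38 to 1.53, adjusted p = 0.9999). Between genotypes Rom1 differed by -0.14 in CD80hi cells (-1.17 to 0.89, adjusted p = 0.997) and by -0.22 in CD80lo cells (-1.24 to 0.81, adjusted p = 0.999).

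Summed signals of markers listed for other cells differed between the CD80 classes. The summed signal of 11 macrophage markers was 2657.9 to 2674.8 in wild-type CD80hi and 1420.5 to 1481.2 in CD80lo cells, and 2310 to 3097.3 and 1782.9 to 1829.9 in the knockout. That of 10 dendritic cell markers was 10813.5 to 11030.6 and 6178.9 to 6933.3 in the wild type, and 12810.4 to 14274.7 and 5472.7 to 7033.1 in the knockout. It was 7742 to 11154.3 in the sorted dendritic cells themselves, so it does not measure their share in a sample. Itgax, 1 of the 10, read 46 and 61.8 in wild-type CD80hi and 53.8 and 33.7 in CD80lo cells. In the knockout it read 37.3 and 47.7 against 41.7 and 23.6. All 10 had a positive difference in both genotypes. Of the 11 macrophage markers, all 11 had a positive difference in the wild type and 7 in the knockout. In contrast 11 fibroblast markers summed to 893.2 to 939.2 in wild-type CD80hi and 2865.5 to 3118.9 in CD80lo cells, and to 1228 to 1384.1 and 3623.3 to 4352.2 in the knockout. Of these 11, 4 went the other way in each genotype, with a positive difference. The sum of 10 endothelial markers was also lower in wild-type CD80hi cells, at 252.7 to 256.5 against 639.1 to 1150.2 in CD80lo cells. In the knockout the endothelial ranges overlapped (271.2 to 279.8 and 265.7 to 914). Of these 10, 3 had a positive difference in the wild type and 4 in the knockout. Cortical epithelium markers, 8 on the array, summed to 5440.2 to 5933.2 in wild-type CD80hi and 7896.5 to 8967.8 in CD80lo cells, and to 6269.4 to 6810.3 and 9813.1 to 10165.3 in the knockout. In the wild type 4 of the 8 had a positive difference (median 0.002) and 2 passed as lower. In the knockout 3 had a positive difference (median -0.81), 1 passed as higher and 2 as lower. These sums therefore do not describe the list gene by gene. Of 8 B cell markers the kinase Blk carried most of the sum in knockout CD80hi cells, at 535.6 to 681.1. In wild-type CD80hi cells it read 192.6 to 213, similar to the other 7 together. In CD80lo cells it read 14.9 to 41.8. The other 7 summed to 166.3 to 218.7 in CD80hi cells of the wild type, 180.9 to 210.2 in those of the knockout, and 102.1 to 153.7 in CD80lo cells. The part of these cell types in the Rom1 difference was not tested.

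Against dendritic cells, Rom1 in unfractionated mTEC was higher by 1.59 ± 0.48 (0.57 to 2.62, adjusted p = 0.0245), and the difference was 1.67 between the samples numbered 1 and 1.51 between those numbered 2. The call ended without mTEC array 1 (adjusted p = 0.176) or dendritic cell array 2 (0.138) and under quantile normalization (1.22, adjusted p = 0.119), and the difference was 2.57 with 1 added and 0.77 with 17.3 added. The difference was 0.60 ± 0.48 against cTEC (-0.43 to 1.63, adjusted p = 0.510) and 0.98 ± 0.48 against macrophages (-0.05 to 2.01, adjusted p = 0.180), neither past the threshold. Of the 3 cell types, the test separated only dendritic cells from mTEC. The thymocyte markers given above were also unequal in this comparison, and their part in it was not tested.

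The other Rom1 probe set was too dim to be tested. It read 9.7 and 9.8 in wild-type CD80hi, 5.1 and 3.1 in wild-type CD80lo, 0.5 and 19.1 in knockout CD80hi and 1.0 and 8.8 in knockout CD80lo cells, and 9.7 and 0.6 in unfractionated mTEC. The wild-type CD80hi arrays lay above the CD80lo arrays, and the knockout groups overlapped. Without the filter, its wild-type CD80hi difference was 0.72 ± 0.60 (adjusted p = 0.624), and its Pearson r with the brighter probe set was 0.38 over 16 arrays. The Rom1 calls therefore rest on 1 of its 2 probe sets.

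Prph2, the partner of Rom1 in the disc rim, read 12.8 and 6.3 in wild-type CD80lo cells, its highest group, and 3.5 and 3.6 in wild-type CD80hi cells. Its knockout signals were 2.0 and 7.2 in CD80hi and 2.9 and 4.1 in CD80lo cells, and the remaining 8 arrays read 1.8 to 4.5. In the wild type the CD80lo arrays lay above the CD80hi arrays, the opposite order to Rom1. No array exceeded 17.3, and without the filter the wild-type CD80hi difference was -0.74 ± 0.32 (adjusted p = 0.193).

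Sag, the arrestin that quenches activated rhodopsin, had its highest signals in knockout CD80lo cells, 25.6 and 35.8. Wild-type CD80lo cells read 13.4 and 22.2, wild-type CD80hi 21.0 and 18.8, and knockout CD80hi 3.4 and 18.1. Unfractionated mTEC read 16.8 and 25.1, macrophages 20.9 and 12.4, cTEC 16 and 9.9, and dendritic cells 6.7 and 13.3. Both knockout CD80lo arrays lay above the 14 others, and all other neighbours in the order of group means overlapped. The wild-type CD80hi and CD80lo arrays overlapped, with a difference of 0.15 (-0.87 to 1.18, adjusted p = 0.917). In the knockout the CD80hi difference was -1.36 ± 0.48 (-2.38 to -0.33, adjusted p = 0.0822), which did not pass, although it did without knockout CD80hi array 2 (-2.10, adjusted p = 0.0171). The 2 arrays of knockout CD80hi cells were far apart, at 3.4 and 18.1. Between genotypes Sag differed by -0.85 in CD80hi cells (-1.87 to 0.18, adjusted p = 0.591) and by 0.66 in CD80lo cells (-0.36 to 1.69, adjusted p = 0.999). The difference between these was -1.51 ± 0.68 (-2.96 to -0.06, adjusted p = 0.546 by limma, under 0.05 before adjustment). Unfractionated mTEC differed by 0.54 from cTEC (adjusted p = 0.564), by 0.82 from dendritic cells (0.259) and by 0.27 from macrophages, none past the threshold.

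Gnat2, the alpha subunit of cone transducin, read 20.5 and 25 in wild-type CD80hi cells, the only arrays over 17.3. It read 7.5 and 1.7 in wild-type CD80lo, 7.8 and 11.4 in knockout CD80hi and 1.7 and 15.3 in knockout CD80lo cells, and 13.8 and 16.3 in unfractionated mTEC. cTEC read 4.9 and 13.2, dendritic cells 10.2 and 11.1, and macrophages 11.5 and 1.6. Wild-type CD80hi cells stood above every other group. Unfractionated mTEC came next by mean, above the dendritic cells that followed, and the neighbours below them overlapped. The wild-type CD80hi difference was 1.62 ± 0.57 (0.40 to 2.84, adjusted p = 0.0844), short of the threshold, and passed with only these 4 arrays in the fit (adjusted p = 0.0222). Gnat2 entered the test only through its wild-type CD80hi arrays, so both values are a description and support no call. In CD80hi cells the knockout arrays both lay below the wild-type arrays, with a difference of -0.94 ± 0.57 (-2.16 to 0.28, adjusted p = 0.637). The corresponding differences were 0.35 in CD80lo cells (-0.87 to 1.58, adjusted p = 0.999) and -1.30 for the interaction (-3.02 to 0.43, adjusted p = 0.875). In knockout cells the CD80hi difference was 0.32 (adjusted p = 0.818). The differences of mTEC from cTEC, dendritic cells and macrophages were 0.58, 0.36 and 0.96, with adjusted p = 0.612, 0.733 and 0.286.

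Gnat1, the alpha subunit of rod transducin, stayed under 17.3 on all arrays and showed no such order. It read 10.6 and 5.6 in wild-type CD80hi, 3.0 and 6.5 in wild-type CD80lo, 3.1 and 8.4 in knockout CD80hi, and 6.6 and 14.6 in knockout CD80lo cells. The other 8 arrays read 1.1 to 11.8. All neighbouring groups overlapped in the order of their means.

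Pde6b, a catalytic subunit of the rod phosphodiesterase, had 2 probe sets. The name of the brighter marks probes that can match a family of similar sequences. It read 14.5 and 26.8 in wild-type CD80hi, 10.3 and 2.9 in wild-type CD80lo, 8.4 and 12 in knockout CD80hi and 2.3 and 19.8 in knockout CD80lo cells. Unfractionated mTEC read 13.9 and 16.5, macrophages 6.5 and 21.9, dendritic cells 14.4 and 9.8, and cTEC 5.4 and 7.0. The wild-type CD80hi arrays lay above the CD80lo arrays and above those of the knockout CD80hi cells, yet the differences, 1.20 ± 0.57 (-0.04 to 2.43, adjusted p = 0.227) and -0.73 (-1.96 to 0.50, adjusted p = 0.782), did not pass. The dimmer probe set read 7.1 and 12.1 in wild-type CD80hi and 0.8 and 1.5 in knockout CD80hi cells, against 0.7 and 3.1 in CD80lo cells of the wild type and 0.7 and 2.2 in those of the knockout. Unfractionated mTEC read 7.1 and 7.6, and the other 6 arrays 0.5 to 6.9. Here too the wild-type CD80hi arrays lay above the wild-type CD80lo and the knockout CD80hi arrays. Without the filter the differences were 1.11 ± 0.37 for CD80hi against CD80lo (adjusted p = 0.0887) and -1.26 ± 0.37 for the genotype in CD80hi cells (adjusted p = 0.125). Across 16 arrays the probe sets correlated at Pearson r = 0.52. By the brighter one the interaction was -1.02 (-2.77 to 0.72) and the knockout CD80hi difference 0.17 (adjusted p = 0.911). Unfractionated mTEC differed by 0.86 from cTEC (adjusted p = 0.404), by 0.25 from dendritic cells (0.822) and by 0.20 from macrophages.

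Pde6a, the other catalytic subunit, had a different pattern. It read 11.6 and 13.1 in wild-type CD80hi, 10.9 and 15.0 in wild-type CD80lo, 13.9 and 22.9 in knockout CD80hi and 17.0 and 23.9 in knockout CD80lo cells. Macrophages read 16.8 and 24.7, cTEC 20.2 and 17.6, unfractionated mTEC 13.5 and 13.0, and dendritic cells 12.3 and 2.4. All 4 knockout arrays lay above the wild-type arrays of their own CD80 class, by a small margin in the CD80hi class (13.9 against 13.1). The genotype differences were 0.41 in CD80hi (-0.49 to 1.31, adjusted p = 0.878) and 0.50 in CD80lo cells (-0.39 to 1.40, adjusted p = 0.999), and the wild-type CD80hi difference was -0.04 (-0.94 to 0.85, adjusted p = 0.973). Of the 2 subunits that form the rod enzyme, only Pde6b had its highest group mean in wild-type CD80hi cells. The Pde6b arrays of that group overlapped those of other groups, and neither subunit passed a test. The mTEC differences of Pde6a were -0.39 from cTEC (adjusted p = 0.651), 0.70 from dendritic cells (0.269) and -0.48 from macrophages.

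The genes did not vary as 1 group across the arrays. Among the 5 tested genes the pairwise Pearson r over 16 arrays, which share cell type and replicate number, was highest for Gnat2 and Pde6b (0.59) and for Rom1 and Gnat2 (0.48); the others lay between -0.25 and 0.22. The genes most like each of them, out of 8263 tested probe sets with 1 symbol, differed from gene to gene. Rom1 went with Hnf4g, a nuclear receptor of gut and kidney (r = 0.94), Tph1, the serotonin-synthesising enzyme of gut and pineal (0.93), and Mtarc2, a mitochondrial reductase (0.91). Gnat2 went with Fabp6, the ileal bile acid-binding protein (0.86), Mgmt, a DNA repair enzyme (0.86), and Ttr, a thyroxine and retinol carrier protein (0.84). Sag went with Son, a nuclear speckle protein (0.85), Mmp11, a matrix metalloproteinase (0.83), and Lama5, a laminin chain (0.81). Pde6a went with Apbb1 (0.80), Sh3bgrl2 (0.77) and Zkscan5 (0.76), and Pde6b with Kap (0.82), Aqp7 (0.78) and Gbp2b (0.75). These are the highest of 8263 correlations and carry no test.

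Other genes of the eye were taken from 5 lists, also chosen with earlier results of these data known. Of 28 further phototransduction genes 15 were on the array and 8 tested; the figures were 6 and 6 of 26 for photoreceptor structure and maintenance, 14 and 9 of 19 for the retinoid cycle and pigment epithelium, 11 and 4 of 19 for retinal transcription factors, and 12 and 8 of 22 for lens crystallins. In wild-type CD80hi against CD80lo cells 2 of 6 structure genes, 3 of 9 retinoid genes and 2 of 8 lens genes rose, 1 of 8 phototransduction genes fell and none of 4 transcription factors passed, where 744 probe sets rose and 442 fell among the 12.7% called. Their median differences were 0.84, 0.97, 0.07, 0.03 and 0.81, in that order, against -0.04 for all tested probe sets. These genes passed the same filter, so their counts and medians are a description too. Between knockout and wild-type CD80hi cells 1 of 6 structure, 3 of 9 retinoid, 1 of 8 lens and 1 of 8 phototransduction genes fell and none rose, where 268 of all 284 calls (3.05% of probe sets) were lower, with medians of -0.86, -0.55, -0.05 and -0.22 against -0.05 for all; no transcription factor passed (median 0.01). In CD80lo cells no gene of these lists passed between the genotypes. The photoreceptor set above, with 0 of 5 past the threshold in the genotype comparison of CD80hi cells, stand beside these counts as a description.

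**Figure D3:**
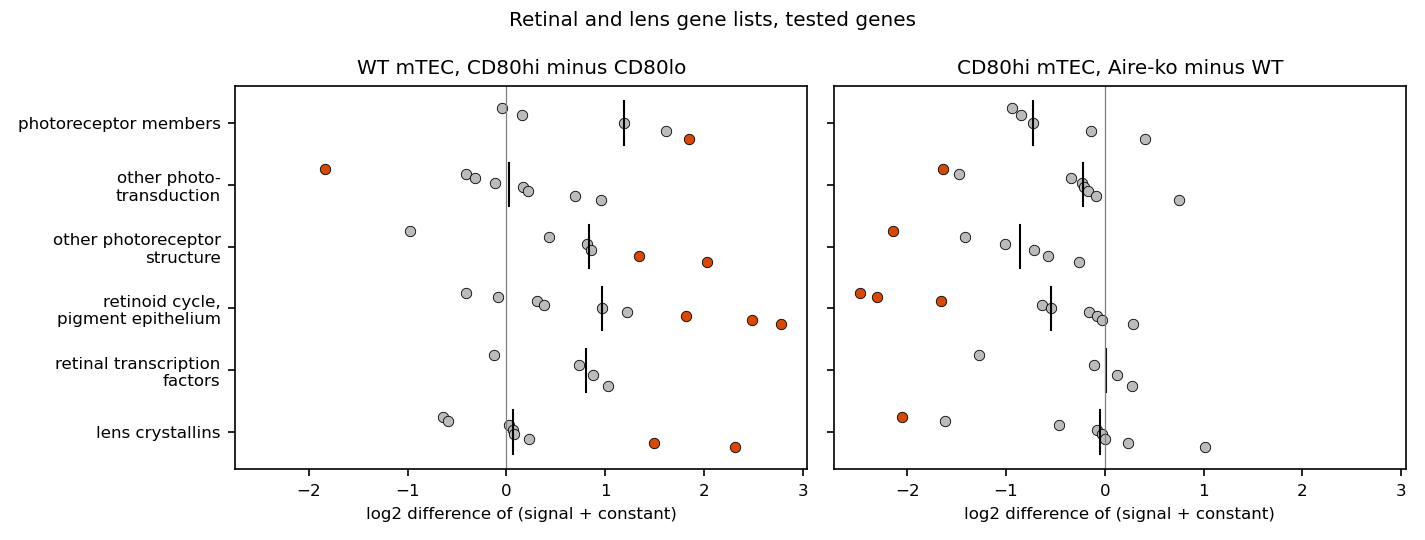
Log2 difference of every tested gene in the 6 lists, for wild-type CD80hi minus CD80lo cells and for knockout minus wild-type CD80hi cells (which share the wild-type CD80hi arrays); orange points passed the adjusted threshold of 0.05 and the black bar is the list's median. The photoreceptor set has 1 orange point in the first comparison (Rom1) and none in the second.

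Abca4, the flippase of the photoreceptor disc rim, also rose in wild-type CD80hi cells. It read 54.9 and 53.8 in wild-type CD80hi, 12.9 and 7.0 in wild-type CD80lo, 41.7 and 47.7 in knockout CD80hi and 22.4 and 12.3 in knockout CD80lo cells. The CD80hi arrays of both genotypes lay above all CD80lo arrays. In the wild type it rose by 2.03 ± 0.41 (adjusted p = 0.00376; 0.0570 without wild-type CD80lo array 2), while the knockout CD80hi difference of 1.20 ± 0.41 did not pass (adjusted p = 0.0716). Prom1, which marks the base of the discs, also rose in wild-type CD80hi against CD80lo cells, by 1.34 ± 0.39 (adjusted p = 0.0333 by limma). This call ended without the filter (adjusted p = 0.0541) and with 1 added (0.0702). Unlike Abca4, Prom1 was called between the genotypes in CD80hi cells. It read 73.8 and 66.6 in wild-type CD80hi, 8.5 and 16.8 in knockout CD80hi, 29.1 and 20.9 in wild-type CD80lo and 22.1 and 32.4 in knockout CD80lo cells, and fell in the knockout CD80hi cells by 2.14 ± 0.39 on the log2 scale (adjusted p = 0.00594). That call ended without knockout CD80hi array 1 or either wild-type CD80hi array (adjusted p up to 0.0845).

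Lens and retinoid genes were among those that fell in the knockout. Cryaa, the lens alpha-crystallin, read 140.4 and 99.2 in wild-type CD80hi, 19.6 and 20.2 in wild-type CD80lo, 21.9 and 28 in knockout CD80hi and 17.1 and 10.3 in knockout CD80lo cells. It rose by 2.31 ± 0.40 in wild-type CD80hi cells (adjusted p = 0.00128) and fell by 2.05 ± 0.40 in knockout CD80hi cells (adjusted p = 0.00913, up to 0.147 and no longer past the threshold without knockout CD80hi array 1 or either wild-type CD80hi array). Crabp1, a retinoic acid-binding protein, read 39.4 and 31.4 in wild-type CD80hi and 1.7 to 10 in the other CD80 groups. It rose by 2.49 ± 0.45 in wild-type CD80hi cells (adjusted p = 0.00183) and fell by 2.48 ± 0.45 in knockout CD80hi cells (adjusted p = 0.00621, up to 0.0892 without 1 of the same 3 arrays, each of which ended the call). Rbp4, the plasma retinol carrier, read 26.1 and 29.5 in CD80hi cells of the wild type and 1.7 and 1.9 in those of the knockout, and fell by 2.30 ± 0.39 on the log2 scale (adjusted p = 0.00407; 0.0565 without wild-type CD80hi array 2).

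Among phototransduction genes, Guca1a, the activator of retinal guanylate cyclase, read 21.3 and 26.2 in CD80hi cells of the wild type and 3.8 and 4.9 in those of the knockout, and fell by 1.64 ± 0.40 (adjusted p = 0.0386). Leaving out any of these 4 arrays ended the call (adjusted p up to 0.287), as did quantile normalization, the larger constant, no filter and a fit of only these groups. Its highest signal was 50.6, in dendritic cells. Gnb3, the beta subunit of cone transducin and of taste cells, went the other way between the CD80 classes. It read 32.9 and 27.4 in wild-type CD80hi and 122.1 and 116.6 in CD80lo cells and fell by 1.83 ± 0.47 (adjusted p = 0.0171, and up to 0.121 with any of the 4 arrays left out, which ended the call). In the knockout Gnb3 read 21 and 24.5 in CD80hi and 450.6 and 138.8 in CD80lo cells. That difference was -3.22 ± 0.47 (adjusted p = 0.000391 by limma), and -4.05 to -2.38 with 1 array left out. Gnat2, which joins Gnb3 in cone transducin, had its wild-type CD80hi arrays above the CD80lo arrays, the opposite order to Gnb3. The Gnat2 difference did not pass, and Gnat2 entered the test only through those CD80hi arrays, so this order is a description only.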

How the data were processed

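The deposited values are linear intensities of 12488 probe sets on 16 Affymetrix arrays, whose mean per array, after trimming 2% from each end, is about 100.1; the sources used here do not name the authors' software or scaling. The members and lists were chosen with earlier results of these data known. A constant of 4.8 (20th percentile) was added before log2. Removing 66 controls and all probe sets not over 17.3 (40th percentile) on 2 arrays left 9319. Symbols were updated by gene ID through RefSeq's GRCm38.p6 annotation, after which 10833 probe sets had a single symbol, 396 several and 1193 none. The brightest probe set represented a gene.

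All contrasts came from 1 limma model (3.58.1, R 4.3.3, and version 1.17.8 of data.table) over all arrays, with eBayes and a trend (residual degrees of freedom 8, prior 5.97), 2-sided and Benjamini-Hochberg adjusted over all tested probe sets, threshold 0.05. The script was tested on simulated data. The 2 arrays per group limit the precision; replicates correlated at r = 0.896 to 0.966. Figures used Python 3.11.15 and matplotlib 3.10.9.

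Named were all members, the 3 genes most like each tested one, and from the other eye lists genes past the threshold (at most 4 per list and comparison; not all are described). Alternatives were quantile normalization, constants of 1 and 17.3, filters, probe set averaging, only the groups compared, a replicate block and leaving out each array. Deviations of same-numbered arrays correlated at 0.279 to 0.526 in the unfractionated groups. In the CD80-sorted groups r was 0.517 between knockout CD80hi and CD80lo cells and 0.0282 to 0.170 in the other 5 pairs. Differences within a number were computed only for the unfractionated groups, although the knockout pair lay within their range. The main model had no replicate term for any group.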

Additional observations from a re-analysis of the deposited data

Results flagged for a closer look

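In 3 genes of the retinoid and phototransduction lists the genotype difference itself differed between CD80hi and CD80lo cells by the interaction test. They were 2 of 9 tested retinoid genes and 1 of 8 tested phototransduction genes. None of the 6 structure genes, 4 transcription factors, 8 lens genes or 5 photoreceptor genes tested passed this test. Of all 9319 probe sets 121 passed it (1.30%), and all 121 were negative. Crabp1 had a log2 interaction of -3.03 ± 0.64 (adjusted p = 0.0366), with signals of 39.4 and 31.4 in wild-type CD80hi cells and 1.7 and 3.1 in knockout CD80hi cells. Its CD80lo signals were 1.7 and 3.0 in the wild type and 10 and 2.5 in the knockout. Rbp4 had an interaction of -3.29 ± 0.55 (adjusted p = 0.00767), with 20.7 and 42.1 in CD80lo cells of the wild type and 86 and 47.1 in those of the knockout, where the knockout CD80hi arrays read 1.7 and 1.9. It did not pass without wild-type CD80hi array 2 (adjusted p = 0.0525). Guca1a had an interaction of -2.49 ± 0.56 (adjusted p = 0.0455), with 7.7 and 12.4 in CD80lo cells of the wild type and 26.4 and 17.7 in those of the knockout. It did not pass with any array left out (adjusted p up to 0.196) or under quantile normalization, other constants, no filter or a fit of only these groups. Crabp1 did not pass under quantile normalization, the smaller constant, a fit of only these groups or with any of 7 arrays left out (adjusted p up to 0.166). The part of other cell types' markers in these differences was not tested.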

How the results depend on the processing

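Of 492 alternative tests of the photoreceptor genes 449 kept their direction and their side of the threshold, 10 lost it, 2 gained it and 31 changed sign, none of the latter past the threshold. Under quantile normalization the count of genes past it was 0 in wild-type CD80hi against CD80lo cells and 0 in mTEC against dendritic cells. With only the groups compared it was 2 in the wild type (Rom1 and Gnat2) and 0 in the knockout. Leaving out 1 array gave 0 to 1, 0 to 2 (knockout) and 0 to 1 (dendritic cells). The replicate block left each count as it was, with adjusted p = 0.00245 for Rom1 in the wild-type CD80 comparison, and changed no call; in the knockout it gave 0.00175 for Rom1 and 0.0526 for Sag. A filter of 50 left none of these genes, so it gave no value. Under quantile normalization the sign changed for Sag (-0.00525) in wild-type CD80hi against CD80lo cells, Rom1 (0.049) between genotypes in CD80hi cells, Pde6a (0.11) in the interaction, Pde6b against dendritic cells (-0.27) and macrophages (-0.17), and Sag against macrophages (-0.055). Leaving out 1 array changed the sign within these ranges. In wild-type CD80hi against CD80lo cells they were -0.13 to 0.44 for Sag and -0.21 to 0.13 for Pde6a. Between genotypes they were -0.42 to 0.14 for Rom1 in CD80hi cells, and -0.80 to 0.37 for Rom1, -0.46 to 1.17 for Gnat2 and -0.60 to 1.19 for Pde6b in CD80lo cells. In the knockout CD80 comparison they were -0.49 to 1.14 for Gnat2, -0.42 to 0.15 for Pde6a and -0.72 to 1.07 for Pde6b. In the interaction they were -0.38 to 0.19 for Pde6a and -0.51 to 0.66 for Rom1, and against macrophages -0.016 to 0.56 for Sag and -0.42 to 0.82 for Pde6b. The cause was not tested. The low signals of these genes over background, on 2 arrays a group, limit what could be detected.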
